A study of Homo sapiens with 6 samples.

Results

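TPM1, TAGLN, ANKRD1, CCN2, CRIM1, AMOT and PIEZO2 are 7 genes tied to the way cells sense and bear mechanical load, out of 14884 genes measured by name. They were taken by symbol, each by its brightest probe set, because of how they differed in these arrays, so their differences are given as descriptions with no test. The arrays profiled U-2 OS, a human osteosarcoma line, 4 days after infection with a retroviral vector for progerin and after 3 days in puromycin at 5 µg/ml. On 3 arrays the vector encoded S22A-progerin, in which serine 22 is alanine, and on the other 3 it encoded wt-progerin, progerin with that serine. Progerin is the truncated, permanently farnesylated lamin A of Hutchinson-Gilford progeria, and serine 22 of lamin A is phosphorylated when the lamina comes apart at mitosis. Both groups therefore carried the vector, progerin and the cell's own lamins, in a single tumour line, and no array without progerin was analysed here. The comparison asks what changes when that serine cannot be phosphorylated.

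YAP and TAZ are transcription coactivators that enter the nucleus when cells spread on a stiff substrate and act through TEAD factors bound to DNA, while the Hippo kinases hold them in the cytoplasm. SRF is a second route from tension to transcription, since its coactivators of the MRTF family are released into the nucleus as free actin is built into filaments. The lamina is part of this chain, because it takes up force passed from the cytoskeleton to the nucleus. ANKRD1 and CCN2 are among the best known YAP targets, CRIM1 is a further one, and TAGLN and TPM1 are cytoskeletal targets of SRF. AMOT binds YAP, and PIEZO2 is a channel opened by mechanical force.

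RefSeq promoter sequences of build GRCh38.p14 were found for 5 of the 7 genes, and not for TAGLN and CRIM1. Shown here are 250 bases upstream of the start site for the YAP targets ANKRD1 (chr10:90921088-90921337, minus strand) and CCN2 (chr6:131951373-131951622, minus strand), which were higher in S22A-progerin, and for AMOT (chrX:112840832-112841081, minus strand) and PIEZO2 (chr18:11149570-11149819, minus strand), the members with the largest differences. All run 5′ to 3′ on the gene's strand, and capitals mark the core letters GGAATG of the TEAD motif.
ANKRD1: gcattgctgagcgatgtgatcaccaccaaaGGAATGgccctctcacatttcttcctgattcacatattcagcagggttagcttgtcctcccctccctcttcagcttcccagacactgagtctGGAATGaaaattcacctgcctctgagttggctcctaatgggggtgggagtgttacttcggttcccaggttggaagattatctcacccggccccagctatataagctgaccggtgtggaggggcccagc
CCN2: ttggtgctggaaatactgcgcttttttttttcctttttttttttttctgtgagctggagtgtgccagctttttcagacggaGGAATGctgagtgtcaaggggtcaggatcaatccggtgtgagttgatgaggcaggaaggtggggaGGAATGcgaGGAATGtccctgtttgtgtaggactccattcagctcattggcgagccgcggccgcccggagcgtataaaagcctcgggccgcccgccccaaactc
AMOT: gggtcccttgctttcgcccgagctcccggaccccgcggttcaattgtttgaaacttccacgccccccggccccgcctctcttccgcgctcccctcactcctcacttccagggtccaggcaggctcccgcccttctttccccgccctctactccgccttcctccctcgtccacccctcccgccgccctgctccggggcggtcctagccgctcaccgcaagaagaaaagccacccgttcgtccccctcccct
PIEZO2: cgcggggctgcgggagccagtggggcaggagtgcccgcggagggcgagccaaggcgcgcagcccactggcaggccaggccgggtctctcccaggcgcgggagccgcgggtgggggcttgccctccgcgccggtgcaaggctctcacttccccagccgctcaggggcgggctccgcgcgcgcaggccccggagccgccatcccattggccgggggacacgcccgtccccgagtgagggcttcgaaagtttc
GGAATG was searched on both strands. CCN2 held 3 matches, which began 169, 104 and 95 bases before the start site, and ANKRD1 held 2, at 220 and 128 bases. Of 27305 promoters in the table, 11.9% held at least 1 match in the same window, 0.963% at least 2 and 0.0952% at least 3. AMOT, PIEZO2 and TPM1 held 0 matches. The SRF motif known as the CArG box, also searched on both strands, had 0 matches in the 5 windows and stood in 1.14% of all promoters. The SRF target TAGLN had no window, so its promoter was not searched. The windows also differed in base composition. G and C made up 53.2% of the bases in both ANKRD1 and CCN2, against 68.8% in AMOT, 76.8% in PIEZO2 and 78.4% in TPM1, with a median of 58% over all promoters. The TPM1 window lies at a start site 5742 bases inside the annotated gene, so it covers 1 of several starts. A match describes these letters only, and which factors bind there was not measured.

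Levels are RMA values on the log2 scale, where 1 unit is a 2-fold change, and each difference is S22A-progerin minus wt-progerin. A gene rose or fell, or was called, at a limma adjusted p under 0.05. The arrays differed little within a group. Correlation across genes, which are not independent replicates, was 0.994 to 0.996 within S22A-progerin and 0.996 to 0.997 within wt-progerin, against 0.983 to 0.985 between the groups. S22A-progerin replicate 3 stood apart on the second principal component, which held 11.1% of the variance. LMNA, which encodes lamin A and progerin, averaged 8.29 ± 0.024 in S22A-progerin and 8.14 ± 0.036 in wt-progerin (SD, n = 3 each) and did not pass the test (difference 0.15, adjusted p = 0.0796). Its probe set does not check the S22A change. VIM, the mesenchymal filament vimentin, read 10.83 in S22A-progerin and 10.89 in wt-progerin, and did not pass, as 1 of 4 measured markers out of 12 listed for osteosarcoma and mesenchymal cells. Of the others RUNX2, a transcription factor of bone, fell, with 8.03 in S22A-progerin and 8.77 in wt-progerin, and CD44, a hyaluronan receptor, rose, with 9.23 in S22A-progerin and 8.50 in wt-progerin. S100A6 did not pass (0.34). Marker lists of smooth muscle, cardiac and skeletal muscle, epithelium, leukocytes and endothelium averaged between 5.57 and 6.29 per array, around the array medians of 6.04 to 6.09. The smooth muscle list matters here because TAGLN and TPM1 are also smooth muscle genes. Of its 8 markers 5 were measured, their mean per array ran from 6.16 to 6.29 in S22A-progerin and from 6.16 to 6.26 in wt-progerin, and none was called by limma (1 at an unadjusted p under 0.05). TNNI3 of the heart list and CLDN5 of the endothelial list rose and KRT14 of the epithelial list fell, and the part of such markers in the results was not tested. Each array reads a whole culture, so fewer cells with a transcript and less of it per cell cannot be told apart.

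The 4 genes that were lower in S22A-progerin cells encode a YAP-binding protein, a mechanically gated channel and 2 actin-binding proteins. AMOT encodes angiomotin, which ties YAP to actin and cell junctions and can hold it out of the nucleus. AMOT read 7.05, 6.92 and 7.17 in the S22A-progerin arrays, against 8.56, 8.66 and 8.70 in the wt-progerin arrays. Every S22A-progerin value lay below every wt-progerin value, with a gap of 1.39 on the log2 scale between the nearest arrays. The mean was 7.05 ± 0.126 in S22A-progerin and 8.64 ± 0.071 in wt-progerin (SD, n = 3 each), a difference of -1.60 (SE 0.079, 95% interval -1.78 to -1.41), or 3.03-fold lower. AMOT varied more among the S22A-progerin arrays than any other of the 7 genes, and its highest value there was in replicate 3.

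PIEZO2, a cation channel that opens under mechanical force and underlies touch, was lower by nearly the same amount. PIEZO2 read 6.20, 6.08 and 6.10 in the S22A-progerin arrays and 7.69, 7.73 and 7.77 in the wt-progerin arrays. The groups were far apart, and the S22A-progerin values lay close to the array medians of 6.05 to 6.09 over all probe sets. PIEZO2 averaged 6.13 ± 0.065 in S22A-progerin and 7.73 ± 0.038 in wt-progerin, a difference of -1.60 (SE 0.058, 95% interval -1.74 to -1.47), or 3.04-fold lower. Array signal flattens near background and no detection call was used here, so that fold carries this limit. Among all 14884 genes, ordered from the largest decrease, PIEZO2 stood at 9 and AMOT at 10.

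TPM1 encodes a tropomyosin, a coiled coil that lies along actin filaments and steadies stress fibres. TPM1 read 7.97, 8.08 and 8.12 in the S22A-progerin arrays and 9.26, 9.24 and 9.23 in the wt-progerin arrays. The wt-progerin values were tight, with an SD of 0.016, and the S22A-progerin values spread more widely, with an SD of 0.079. The mean of 8.06 in S22A-progerin and that of 9.24 in wt-progerin gave a difference of -1.18 (SE 0.059, 95% interval -1.32 to -1.04), or 2.27-fold lower. A second, dimmer TPM1 probe set averaged 5.60 in S22A-progerin and 6.83 in wt-progerin, a difference of -1.23, close to that of the first. Its S22A-progerin values lay below the array medians, so that difference carries the limit given for PIEZO2.

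TAGLN encodes transgelin, an actin-binding protein of smooth muscle and of contractile fibroblasts and a long-used reporter gene of SRF activity. TAGLN read 7.98, 7.83 and 7.92 in the S22A-progerin arrays, against 8.95, 9.02 and 9.06 in the wt-progerin arrays. The groups did not overlap, and both spreads were small beside the gap of 0.967 between them. TAGLN averaged 7.91 ± 0.076 in S22A-progerin and 9.01 ± 0.056 in wt-progerin, a difference of -1.10 (SE 0.063, 95% interval -1.25 to -0.95), or 2.14-fold lower.

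The 3 genes that were higher in S22A-progerin cells are all YAP targets. ANKRD1 encodes an ankyrin repeat protein first known from the heart, where it sits in the sarcomere and the nucleus. ANKRD1 read 12.70, 12.72 and 12.63 in the S22A-progerin arrays and 11.57, 11.54 and 11.68 in the wt-progerin arrays. All S22A-progerin values were higher, by at least 0.944. The mean was 12.68 ± 0.049 in S22A-progerin and 11.60 ± 0.076 in wt-progerin, a difference of 1.09 (SE 0.061, 95% interval 0.94 to 1.23), or 2.12-fold.

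CCN2, connective tissue growth factor, is a secreted matrix-associated protein that promotes fibrosis and is induced by both YAP and TGF-beta. CCN2 read 12.32, 12.29 and 12.27 in the S22A-progerin arrays, against 11.50, 11.52 and 11.48 in the wt-progerin arrays. It had the smallest spread of the 7 genes in S22A-progerin, with an SD of 0.028. Its mean was 12.29 in S22A-progerin and 11.50 in wt-progerin, a difference of 0.79 (SE 0.050, 95% interval 0.68 to 0.91), or 1.74-fold. The second CCN2 probe set, which was dimmer, gave 8.42 in S22A-progerin and 7.81 in wt-progerin, a smaller difference of 0.61.

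CRIM1 encodes a membrane protein with cysteine-rich repeats that binds bone morphogenetic proteins and other growth factors. CRIM1 read 11.20, 11.15 and 11.26 in the S22A-progerin arrays and 10.85, 10.79 and 10.85 in the wt-progerin arrays. Its groups were the closest of the 7, with 0.307 between the nearest arrays, yet they did not overlap. The means were 11.20 ± 0.052 in S22A-progerin and 10.83 ± 0.031 in wt-progerin, apart by 0.38 (SE 0.054, 95% interval 0.25 to 0.50), or 1.30-fold.

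**Figure D1:**
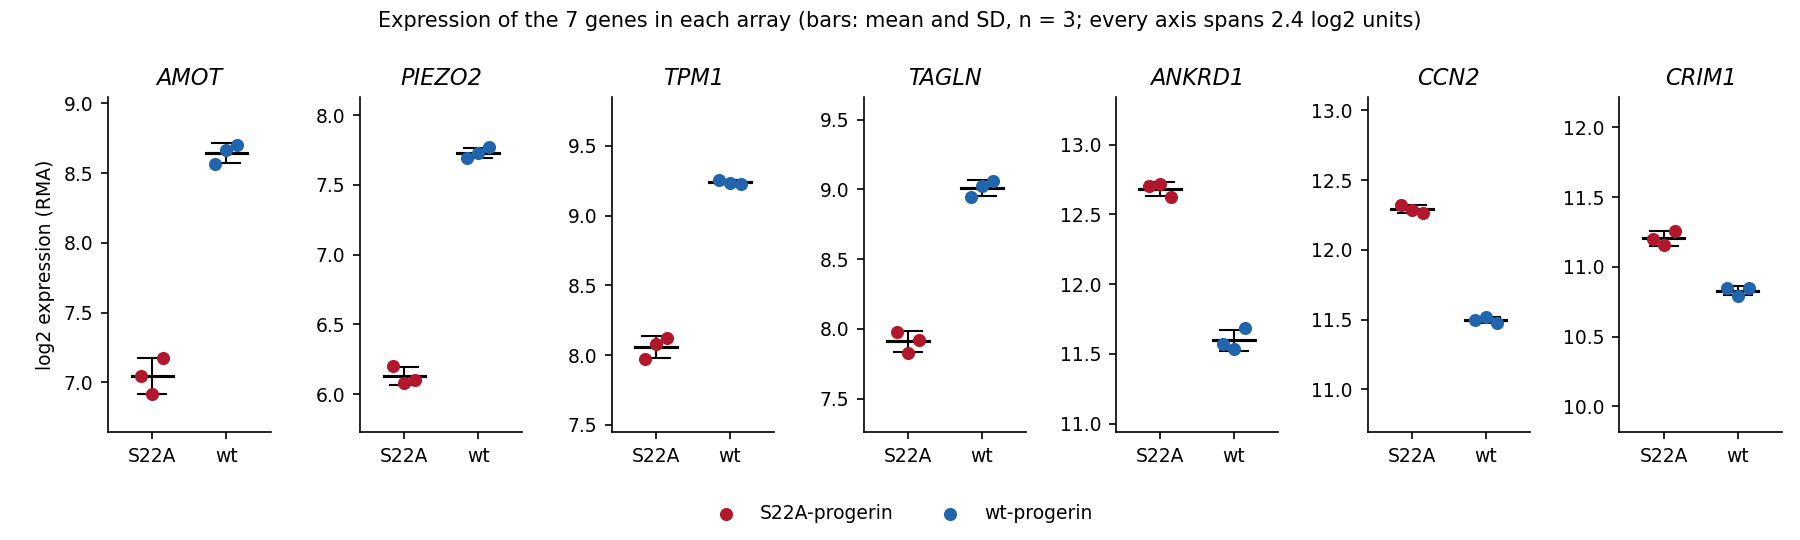
Log2 expression of the 7 genes in each array, S22A-progerin in red on the left and wt-progerin in blue on the right of each panel, with lines at the mean and bars of 1 SD (n = 3 per group); all panels span the same number of log2 units. AMOT, PIEZO2, TPM1 and TAGLN lie lower in S22A-progerin and ANKRD1, CCN2 and CRIM1 lie higher, with no overlap between groups.

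In all 7 genes the groups did not overlap, as was true of 42.1% of all genes tested (18.5% higher and 23.6% lower in S22A-progerin). AMOT, PIEZO2, TPM1 and TAGLN were at least 2-fold lower and ANKRD1 at least 2-fold higher, as were 0.511% and 1.02% of all genes, counting called genes only. Nothing is read from these counts, since the members were chosen on this contrast. The median difference over all genes was -0.00367, and the median size of a difference was 0.134. Placed on that distribution, the members differ widely among themselves. The decreases of AMOT, PIEZO2, TPM1 and TAGLN stood at places 10, 9, 38 and 54 among decreases, while the increases of ANKRD1, CCN2 and CRIM1 stood at places 134, 249 and 916 among increases. With each array left out in turn, S22A-progerin replicate 3 included, the differences ran from -1.66 to -1.53 in AMOT, from -1.64 to -1.58 in PIEZO2 and from 1.06 to 1.13 in ANKRD1.

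**Figure D2:**
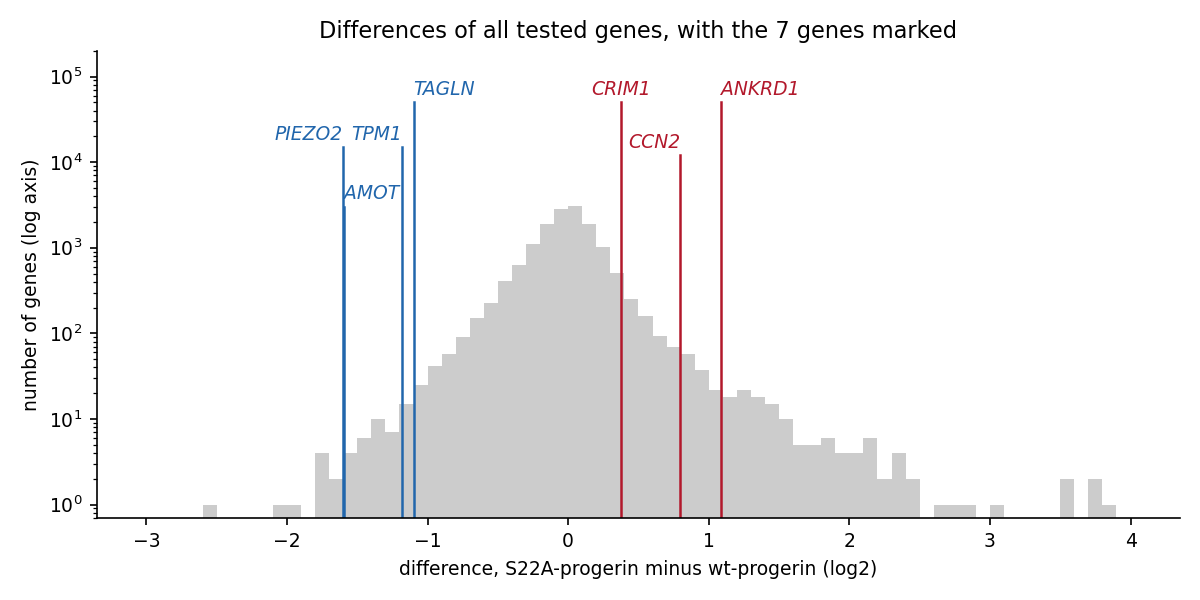
Histogram of the log2 difference, S22A-progerin minus wt-progerin, of all 14884 genes (log count axis), with lines at the 7 genes in blue where lower and red where higher in S22A-progerin. AMOT and PIEZO2 lie at -1.60 in the sparse left tail, while CRIM1 at 0.38 lies on the shoulder of the main peak.

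The wider pathways were read from 9 lists, in which a gene is called at a limma adjusted p under 0.05. The lists held 211 genes, of which 144 were measured, and none of the 7 genes. Of these 18 (12.5%) rose and 46 (31.9%) fell. Of all genes tested 25.4% were called, with 10.8% higher and 14.6% lower in S22A-progerin. This split, 1601 genes higher and 2176 lower, depends in part on array medians, which were higher in S22A-progerin. With the medians made equal, 1320 genes were called higher and 2457 lower. The list genes are brighter than most, with 115 of 144 in the brighter 50% of all genes, where 13.7% rose and 23.6% fell. The lists were chosen with earlier results of these data known, so no excess is read from these shares. The median difference was -0.12 over the list genes.

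Hippo pathway genes moved both ways, among upstream genes and TEAD cofactors alike. VGLL3, a cofactor that binds TEAD factors in place of YAP, rose 1.80-fold, with means of 9.90 ± 0.047 in S22A-progerin and 9.05 ± 0.016 in wt-progerin (adjusted p = 7.74e-05). WWTR1, which encodes TAZ, rose by 0.37 (SE 0.055, adjusted p = 0.0031). FRMD6, an upstream activator of the pathway, and MAP4K4, a kinase that acts on LATS kinases, rose by 0.34 and 0.31, and WWC1, which encodes KIBRA, rose by 0.27 and the kinase cofactor gene MOB1B by 0.25, both named after their values were seen. MOB1B was not called in 8 of 15 other fits. FAT4, an atypical cadherin at the top of the pathway, fell 1.82-fold, with means of 6.38 ± 0.148 in S22A-progerin and 7.25 ± 0.075 in wt-progerin (adjusted p = 5.07e-04). AJUBA, a LIM protein that restrains LATS kinases, fell 1.70-fold, the TEAD cofactor gene VGLL2 1.64-fold and WWC2, of the KIBRA family, 1.43-fold. Picked after their values were seen, WTIP (-0.50), DCHS1 (-0.47), the binding partner of FAT4, NF2 (-0.43), which encodes merlin, and FAT1 (-0.42) also fell.

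YAP1 itself did not pass (10.01 in S22A-progerin and 9.95 in wt-progerin, difference 0.06, adjusted p = 0.491). Over 15 other fits its difference ran from -0.20 to 0.09, so its sign was not stable, and none of them called it. Among the TEAD genes TEAD2 (-0.40) and TEAD1 (-0.20) fell, while TEAD3 (-0.25, adjusted p = 0.0613) and TEAD4 (-0.09, adjusted p = 0.37) did not pass. Of 32 measured Hippo genes 6 rose, 12 fell and 14 did not pass, with a median of -0.08. DCHS1 lost its call with its probe sets averaged, and TEAD1 in 7 of 15 other fits. LATS1 and LATS2 were not analysed here.

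Further YAP and TAZ targets moved both ways. From a published signature of YAP and TAZ targets, with the 7 genes left out, 8 of 19 genes were measured, of which 1 rose, 2 fell and 5 did not pass (median 0.02). MYOF, the membrane repair protein myoferlin, rose 1.52-fold (adjusted p = 2.74e-04). ARHGEF17, a guanine nucleotide exchange factor, fell 1.72-fold and AXL, a receptor tyrosine kinase, 1.37-fold. AMOTL2 (-0.08) did not pass. Of 10 other measured targets 3 rose and 4 fell (median -0.15). CAVIN2, a caveolar coat protein, rose 1.82-fold, EDN1, the vasoconstrictor peptide endothelin, 1.65-fold, and DKK1, a Wnt antagonist, by 0.59 on the log2 scale. AJUBA, AURKB (-0.49), BIRC5 (-0.47) and ARHGAP29 (-0.28) fell. AURKB and BIRC5 are also mitotic genes, and the part of cell division in their values was not tested. DKK1 was dim, at 5.17 in S22A-progerin and 4.58 in wt-progerin, below the array medians of 6.04 to 6.09. Its difference carries the limit given for PIEZO2. DKK1 was no longer called without S22A-progerin replicate 2 or wt-progerin replicate 1 or 3. ARHGAP29 was not called without any array other than S22A-progerin replicate 3. THBS1 (-0.18, adjusted p = 0.0568) did not pass, and CCN1 was not analysed here.

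**Figure D3:**
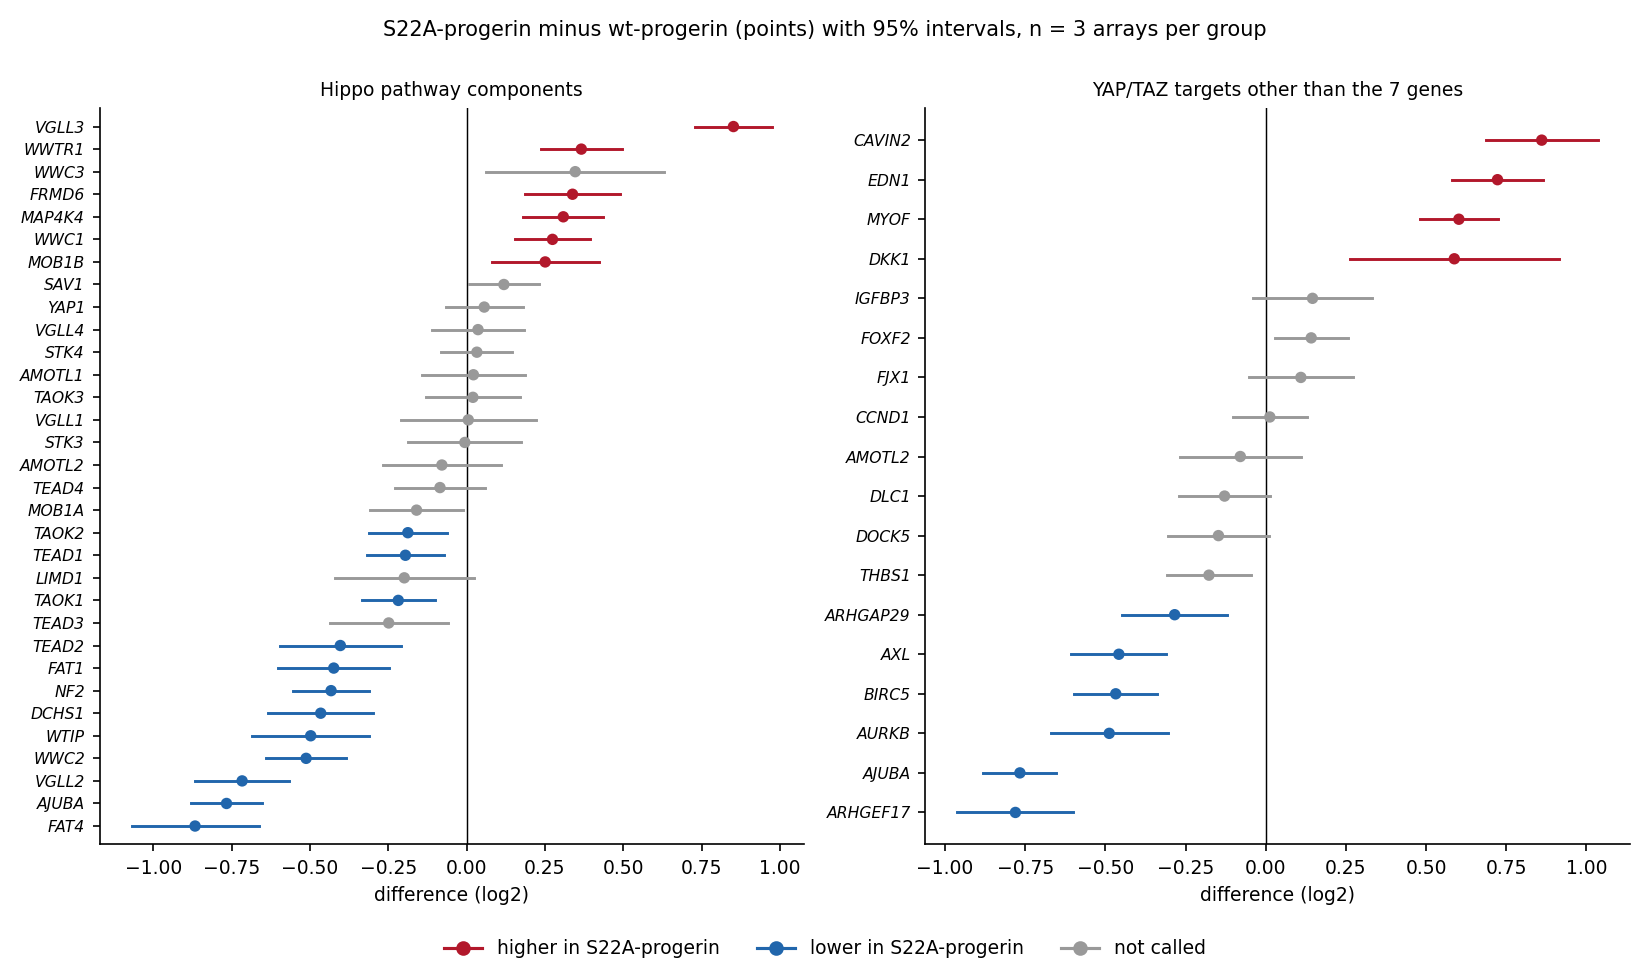
Log2 differences, S22A-progerin minus wt-progerin, with 95% intervals for 32 Hippo pathway genes (left) and 18 YAP and TAZ targets other than the 7 genes (right), red where called higher, blue where called lower and grey where not called (n = 3 arrays per group). VGLL3 and CAVIN2 head the rises, and FAT4 and ARHGEF17 the falls.

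On the SRF side the genes of the factor and of both measured MRTF coactivators fell. MRTFB read 10.13 ± 0.045 in S22A-progerin and 10.57 ± 0.030 in wt-progerin (difference -0.44, adjusted p = 0.00116). MRTFA read 8.93 ± 0.129 in S22A-progerin and 9.35 ± 0.012 in wt-progerin (-0.43, adjusted p = 0.00565). SRF fell less, with means of 10.59 in S22A-progerin and 10.85 in wt-progerin (-0.26, adjusted p = 0.015), and was no longer called without wt-progerin replicate 1 or 2. The largest fall in the list of SRF, MRTF and actin regulators was that of DIAPH3, a formin that builds actin filaments and serves cytokinesis, which fell 1.77-fold. PFN2 (-0.26), a profilin, also fell, but was not called without wt-progerin replicate 3. RND3, a protein that opposes the kinase ROCK and so loosens stress fibres, rose 1.86-fold, with means of 9.39 ± 0.031 in S22A-progerin and 8.49 ± 0.029 in wt-progerin (adjusted p = 5.78e-05). RHOC (0.20) was called higher as well, but not in 7 of 15 other fits. Of the 22 genes measured in this list 2 rose, 7 fell and 13 did not pass (median -0.16). Without any 1 of the 3 wt-progerin arrays 5 genes were called, 1 higher and 4 lower.

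Of 19 measured cytoskeletal targets of MRTF and SRF, 1 rose, 7 fell and 11 did not pass (median -0.04). TPM4, another tropomyosin, fell 1.69-fold (8.95 ± 0.134 in S22A-progerin and 9.71 ± 0.012 in wt-progerin, adjusted p = 5.05e-04). CALD1, caldesmon of actin filaments, fell by 0.46 on the log2 scale, PDLIM7, an actin-bound scaffold protein, by 0.45 and TUFT1, tuftelin, by 0.41. CNN2 (-0.35), a calponin, and TAGLN2 (-0.23), a close relative of transgelin, fell as well, though TAGLN2 was not called without wt-progerin replicate 2 or 3. TPM2 (-0.04) did not pass. MYLK, myosin light chain kinase, was called higher (0.24, adjusted p = 0.0243), but not in 6 of 14 other fits that tested it. Among proteins of focal adhesions, where actin fibres are anchored to the matrix, 3 of 23 rose and 8 fell (median -0.16). LPXN, leupaxin of the paxillin family, rose 5.02-fold, with means of 10.61 ± 0.098 in S22A-progerin and 8.29 ± 0.111 in wt-progerin (adjusted p = 7.31e-06), and FERMT1 (0.34), a kindlin, and PXN (0.31), paxillin, rose less. The tensin genes TNS3 (-0.65) and TNS1 (-0.46), ENAH (-0.60), which extends actin filaments, and FERMT2 (-0.46), a kindlin, fell. ACTA2, TPM3, CNN1 and CNN3 were not analysed here.

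**Figure D4:**
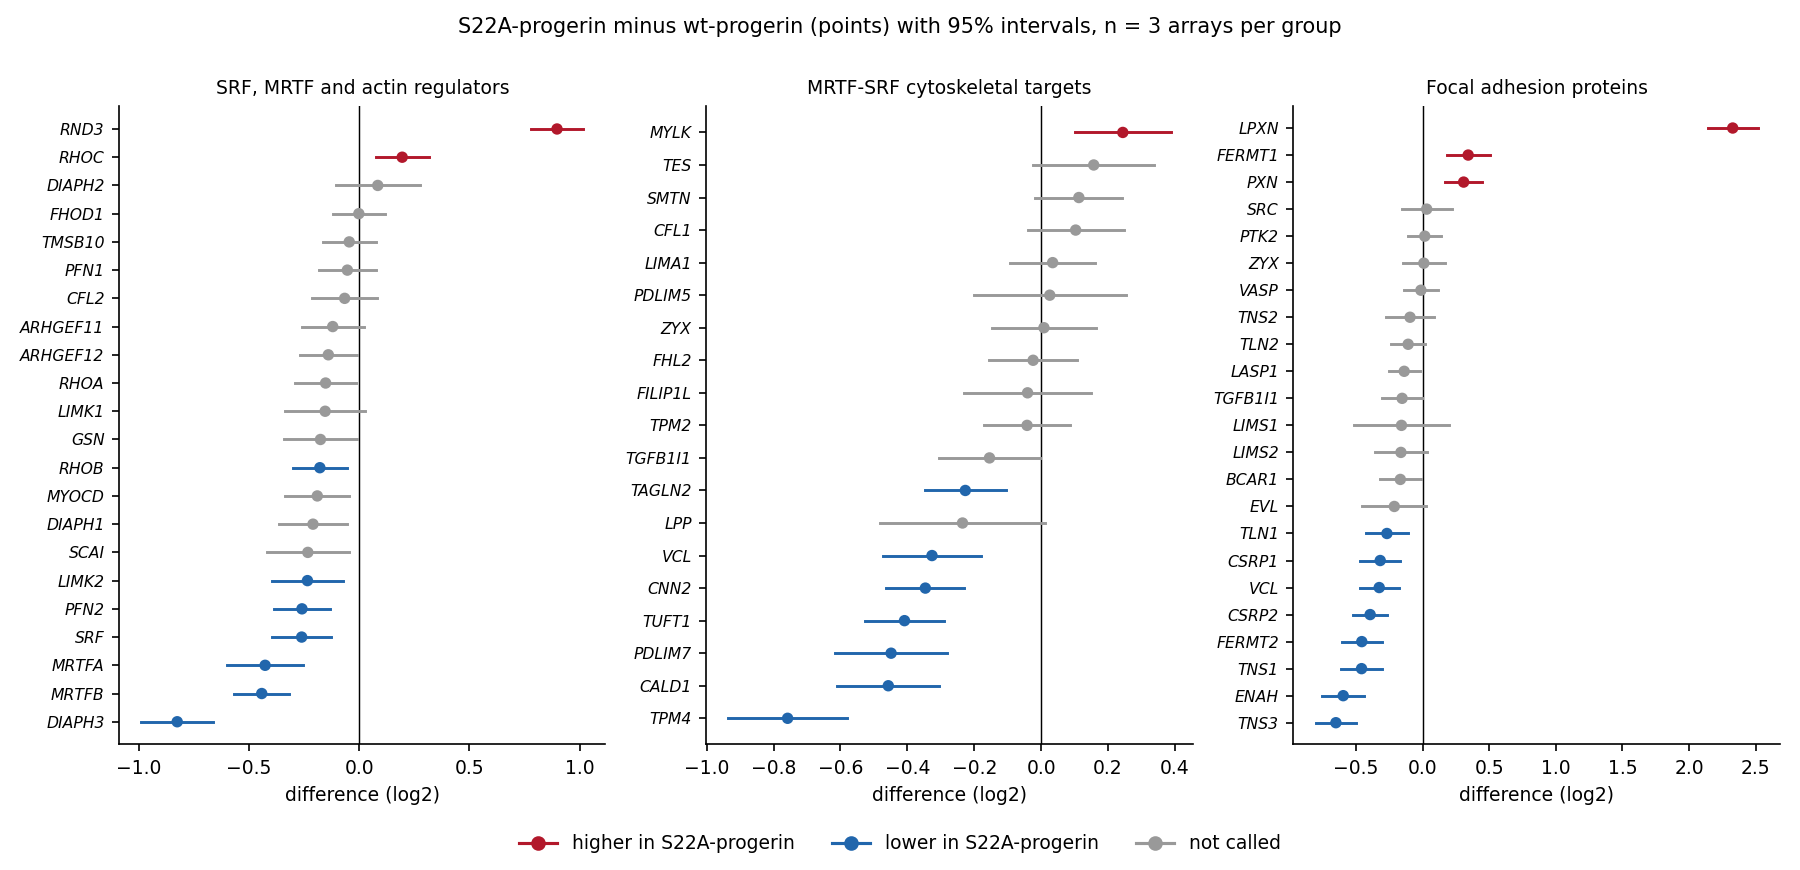
Log2 differences, S22A-progerin minus wt-progerin, with 95% intervals for regulators of SRF and actin (left), cytoskeletal targets of MRTF and SRF (middle) and focal adhesion proteins (right), coloured by call, with n = 3 arrays per group and a scale of its own in each panel. RND3 and LPXN stand apart on the high side, and DIAPH3, TPM4 and TNS3 mark the low end of each panel.

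Of 20 measured relatives of the 7 genes 1 rose, 4 fell and 15 did not pass (median -0.06), a called share of 25% beside 25.4% of all genes. Without wt-progerin replicate 2, 1 rose and 2 fell. CCN3, a matricellular protein related to CCN2, rose 2.52-fold, beside 1.74-fold for CCN2, with 9.92 ± 0.094 in S22A-progerin and 8.59 ± 0.081 in wt-progerin (adjusted p = 5.00e-05). CCN4 (-0.24), CCN5 (0.06) and CCN6 (0.07) did not pass. The angiomotin relatives AMOTL1 (0.02, 95% interval -0.14 to 0.19) and AMOTL2 (-0.08, 95% interval -0.27 to 0.11) did not pass. ANKRD2 (0.08) and ANKRD23 (-0.06), muscle relatives of ANKRD1, did not pass. TPM4 fell while TPM2 did not pass, and the differences of TAGLN2 (-0.23) and CNN2 (-0.35) stand beside -1.10 for TAGLN.

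PIEZO1, the widely expressed relative of PIEZO2, was 9.36 ± 0.069 in S22A-progerin and 9.56 ± 0.014 in wt-progerin, a fall of 0.19 on the log2 scale at adjusted p = 0.0441 that was not called in 8 of 15 other fits. Of 13 measured mechanosensitive channels and PIEZO regulators, 1 rose, 4 fell and 8 did not pass (median -0.06). The rise was in TMEM63B (0.22), a channel opened by osmotic swelling. PKD1 (-0.28), polycystin of the primary cilium, TMC3 (-0.25) and MTMR2 (-0.18), a phosphatase reported to restrain PIEZO2 in mouse neurons, fell. TMC3 was dim, at 5.61 in S22A-progerin and 5.86 in wt-progerin, below the array medians. This count is unstable, since limma called none of the 13 without wt-progerin replicate 1 (5 at an unadjusted p under 0.05), 1 without wt-progerin replicate 3 and 2 without wt-progerin replicate 2 or S22A-progerin replicate 1 or 2.

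CRIM1 and CCN2 both touch TGF-beta and BMP signalling, and in that list 4 of 12 measured genes fell and none rose (limma, with 1 higher at an unadjusted p under 0.05; median -0.13). SMAD6, an inhibitor of BMP signalling that BMP itself induces, fell 2.05-fold, with 6.12 ± 0.138 in S22A-progerin and 7.16 ± 0.069 in wt-progerin (adjusted p = 2.06e-04). Its S22A-progerin values lay close to the array medians, so that fold carries the limit given for PIEZO2. LTBP1 and LTBP2, which store TGF-beta in the matrix, fell 1.57-fold and 1.36-fold, and the BMP antagonist gene NOG fell 1.37-fold. The relatives of CRIM1 with like repeats, CHRD (-0.12), CHRDL1 (-0.05) and BMPER (-0.16), did not pass.

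**Figure D5:**
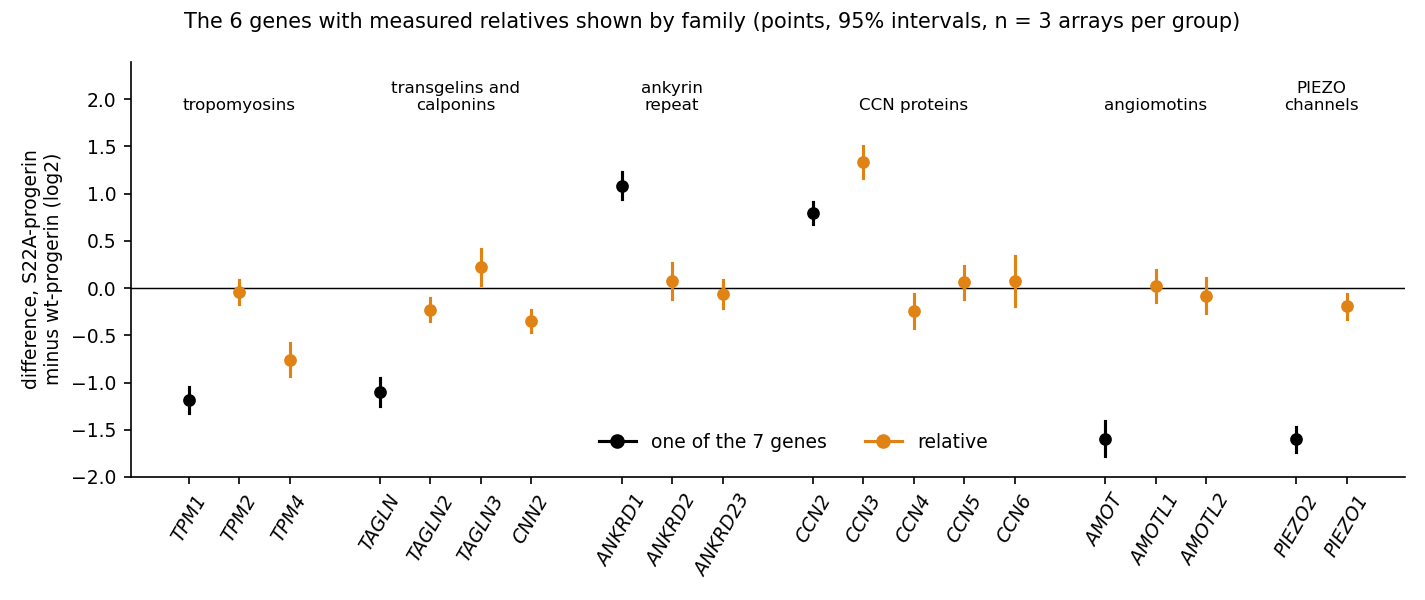
Log2 differences, S22A-progerin minus wt-progerin, with 95% intervals (n = 3 arrays per group), for 6 of the 7 genes (black) beside measured relatives (orange), grouped by family. CCN3 and TPM4 lie on the same side as CCN2 and TPM1, and AMOTL1 and AMOTL2 lie near 0 while AMOT lies at -1.60.

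Likeness of profile was taken as the root mean square distance between values centred on each gene's mean, over the 6 arrays and all protein-coding genes, and it mainly reflects the difference between the groups. PIEZO2 was closest to ACKR3, at a distance of 0.031 on the log2 scale, then to A2M (0.035) and JAKMIP2 (0.055). AMOT was closest to A2M (0.076), MN1 (0.077) and PIEZO2 itself (0.080), so PIEZO2 and AMOT had A2M in common. TPM1 lay closest to HAPLN1 (0.060), AMPH and CCDC80, and TAGLN to CCBE1 (0.027), RTKN2 and MMP24. Among the higher genes, ANKRD1 lay closest to DRAM1 (0.050), SMAGP and DHRS3. CCN2 lay closest to SESN2 (0.030), UBASH3B and GSTO1, and CRIM1 to ZNF433 (0.017), AFAP1 and TFPT.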

How the data were processed

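Expression was measured on 6 Affymetrix whole-transcript arrays, 3 per group, from Trizol-extracted RNA. The deposited log2 values came from RMA, run by the authors in Affymetrix Expression Console according to the submitters' processing notes. That method subtracts background, forces 1 distribution on all arrays and merges the probes of a set. Its settings are not given in the sources consulted. Low log2 values lie near background, where folds shrink, and the number of arrays limits precision. Replicates are independent per the labels, and the p-values speak only of the spread among these arrays.

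The platform annotation gave 1 symbol to 16098 of 53617 probe sets, and only these were used. The other 37519, with no symbol or with several, were left out and not counted apart. This gave 14884 genes, and the brightest probe set stood for each of the 779 genes with more than 1. The test was limma 3.58.1 in R 4.3.3 (lmFit, eBayes, no covariate, two-sided), adjusted by Benjamini-Hochberg over all genes and called under 0.05. Data were simulated for this comparison with 14884 genes, with 50 genes changed at each size and all others left unchanged. Recovered were 11 of 50 genes changed by 0.3, 34 of 50 at 0.6, 45 of 50 at 1 and 49 of 50 at 2. Only 145 genes were called there, against 3777 in the arrays, so the adjusted cutoff was stricter. These shares therefore do not give the recovery in the arrays.

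The 7 members and the gene lists were chosen with earlier results of these data known. Named from each list were up to 4 called genes with the largest differences each way, a set of regulators and relatives, and for each member the 3 most alike protein-coding genes. Other list genes and relatives were picked after their values were seen. Deviations of same-numbered arrays from their group means correlated at -0.0195, -0.0549 and -0.00558, so no shared effect of the replicate number was seen. With 3 arrays per group this cannot exclude that same-numbered cultures were handled together. Alternatives changed the normalization, the filter on dim genes, the probe set rule, the variance prior, the array weights, the block, the arrays used and the threshold. Promoter windows came from RefSeq tables of GRCh38.p14. The array's genome build is not given in the sources used here, so gene coordinates are left out.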

Additional observations from a re-analysis of the deposited data

How the results depend on the processing

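Over 12 alternative fits, 82 values of the 7 differences lay within 1 replicate SD of the reported one. Their direction is fixed by how the genes were chosen and is no sign of stability. The 2 others were in CCN2, at 0.76 with the arrays median centred and 0.70 with its probe sets averaged. Part of the 82 could not move at all. In this balanced design the replicate blocks return the reported difference exactly, and averaging probe sets changes only genes with more than 1. Of the 64 called list genes 44 were called in all of the up to 15 other fits that tested them (13 higher, 31 lower), and of the 80 not called 23 were called in at least 1 fit. Stricter thresholds can only lower a count, and the changed counts follow. At an adjusted p under 0.01, 2078 genes were called (852 higher, 1226 lower), with 4 among SRF, MRTF and actin regulators, 3 among relatives and none among channels (6 at an unadjusted p under 0.05 in limma). With a 1.5-fold minimum added, 863 genes passed (411 higher, 452 lower), with 4 among other YAP/TAZ targets, 4 among Hippo genes, 1 among MRTF-SRF targets, 2 among SRF regulators, 3 among focal adhesion genes, 2 in the TGF-beta and BMP list, 2 among relatives and 0 among channels. With the dimmer 50% of genes left out, which leaves fewer genes to adjust over, 14 SRF regulators were called. With the arrays quantile normalized again 3 channel genes were called, and the cause was not tested. Leaving out 1 array at a time gave 2647 to 3601 called genes, 5 to 8 SRF regulators, 0 to 5 channel genes and 3 to 5 relatives. With the replicate number as a fixed replicate block 5 SRF regulators, 1 channel gene and 3 relatives were called. The replicate block changed no other count by over 1.5 times, and of the 3 S22A-progerin arrays 0 correlated best with its own number. Signal over background was not judged, since no detection calls were used.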

Other observations

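Over all tested genes with a promoter in the RefSeq table, letters of 4 promoter motifs were counted in the 250 bases before the start site, on both strands except where said, as a description with no test. The TEAD letters GGAATG stood in 9.35% of 1198 promoters of genes called higher in S22A-progerin, 9.26% of 1772 promoters of genes called lower and 10.5% of 7779 promoters of genes not called. The AP-1 letters TGANTCA, bound by FOS and JUN proteins that often share sites with TEAD factors, stood in 6.93% of promoters of genes called higher, 3.05% of those called lower and 5.33% of those not called. ANKRD1 held a match that begins 195 bases before its start site, and CCN2 held none in this window. The TATA box letters TATAAA, searched on the gene's strand alone, had shares with the same order as AP-1, at 7.60% of promoters of genes called higher, 2.82% of those called lower and 6.27% of those not called. The CArG box stood in 1.25% of promoters of genes called higher, 1.47% of those called lower and 1.11% of those not called. Base composition moved with the calls, with a median G and C share of 63.2% for genes called higher, 64.8% for genes called lower and 62.4% for genes not called, and its part in these shares was not tested.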
